A study of Mus musculus with 24 samples.

Results

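The genes that load and display antigen on MHC class II molecules were followed in RNA-seq tables of splenic B cells, namely Ciita, H2-Aa, H2-Ab1, H2-Eb1, Cd74, H2-DMa, H2-DMb1, H2-DMb2, H2-Oa and H2-Ob. They were taken by symbol, and all 10 were found among the 23234 genes of each of 2 tables and passed the filter on low values. Values are FPKM, fragment numbers set relative to the length of the transcript and the size of the library. The groups were Tet DKO CD93- cells and their CTL CD93- cells, and Tet KO CD93+ cells and their CTL CD93+ cells, with 3 libraries in each. All cells were freshly isolated primary B cells from spleens of C57BL/6 mice. The genotype label reads Tet2/Tet3-deficient for both the Tet DKO and the Tet KO libraries and control for the others. The labels give no allele, Cre driver, age or animal, so how many animals a group came from is not known, beyond the CTL CD93+ libraries, which read as both sexes. A p-value reflects nothing but how far these libraries spread. Tet2 and Tet3 encode enzymes that oxidise 5-methylcytosine in DNA. CD93 is a surface protein of immature B cells, among others. Not analysed here were 12 of the 24 samples, CD93- cells sorted further by CD23 and CD21.

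In B cells, class II molecules present peptides from antigen taken up through the B cell receptor to helper T cells. The α chain H2-Aa and the β chain H2-Ab1 form I-A, and H2-Eb1 is the β chain of I-E, which C57BL/6 mice do not display because their H2-Ea gene is defective. Cd74, the invariant chain, fills the groove until endosomal proteases trim it to CLIP. H2-DM, a dimer of H2-DMa with H2-DMb1 or H2-DMb2, exchanges CLIP for peptide, and H2-DO, a dimer of H2-Oa and H2-Ob made mainly in B cells, restrains H2-DM. Ciita is the coactivator that switches these genes on. It does not bind DNA itself and docks on RFX, CREB and NF-Y proteins at the X and Y boxes of the promoters.

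The promoter stretches that hold these boxes show what the genes share. RefSeq windows from 250 bases before to 50 bases after the transcript start (GRCm38.p6) were used for 7 of the 10 genes, all on chromosome 17. No window was used for Ciita, H2-Ab1 or Cd74. For the 10 genes, windows on 1 other chromosome were left out of the search, but the count over all windows kept them. The windows of the 7 genes were searched on both strands for an X-box core, GNAAC, starting 20 to 45 bases before a Y box, ATTGG. The pair was present on the gene's own strand in 5 of the 7 genes, against 2.07% of all 32851 windows of that length (4.23% on either strand). The pattern was picked as that of class II promoters, so this difference is not a test of them. In the stretches below, 5′ to 3′ on the gene's strand, the first capitals mark the X-box core and the second the Y box. In H2-DMb2 only the Y box was found.
H2-Aa: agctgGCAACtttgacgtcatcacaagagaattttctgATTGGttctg
H2-Eb1: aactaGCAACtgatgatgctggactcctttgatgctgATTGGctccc
H2-DMb1: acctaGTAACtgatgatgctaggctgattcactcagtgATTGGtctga
H2-DMb2: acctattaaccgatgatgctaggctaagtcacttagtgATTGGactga
H2-Oa: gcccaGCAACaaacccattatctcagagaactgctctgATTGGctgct
H2-Ob: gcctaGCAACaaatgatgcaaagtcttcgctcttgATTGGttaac
These lie at chr17:34287862-34287909 on the minus strand for H2-Aa. On the plus strand they lie at chr17:34305771-34305817 for H2-Eb1, chr17:34153092-34153139 for H2-DMb1, chr17:34145121-34145168 for H2-DMb2, chr17:34092298-34092345 for H2-Oa and chr17:34238813-34238857 for H2-Ob. The X core began 30 to 33 bases before the Y box in all 5 genes that had both. H2-DMa had 2 windows, of which 1 held a Y box and neither held the pair. A match is a run of letters and not a measured binding site, and ATTGG alone, on either strand, was in 37.4% of all windows. The coding sequences of H2-DMb1 and H2-DMb2 were 95.9% identical over 786 bases, with a longest identical run of 221 bases. Reads could therefore be split between them in ways the sources do not describe, and both are also given as a sum.

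The libraries differed in scale. The sum of FPKM was 424032 to 463987 in Tet DKO and 342368 to 394709 in CTL CD93- libraries, and the depth in reads is unknown. In the CD93+ table Tet KO replicate 3 had a sum of 309359 and an upper quartile of 15.4 FPKM over tested genes, against sums of 523898 to 597968 and upper quartiles of 25.8 to 30.05 FPKM in the other 5 libraries. For this reason changes are given with the authors' scaling, which is the main result, and once more with all libraries brought to the same upper quartile, called rescaling below. Across all tested genes the median log2 change was 0.11 in CD93- and -0.22 in CD93+ cells with the authors' scaling, and -0.08 and -0.01 after rescaling. Tet2 was at 8.15 to 9.94 FPKM in Tet DKO and 6.36 to 8.79 FPKM in CTL CD93- libraries, and at 1.80 to 3.55 FPKM in Tet KO and 3.10 to 3.47 FPKM in CTL CD93+ libraries. Tet3 was at 14.9 to 15.7 and 14.8 to 20.1 FPKM, and at 3.84 to 9.92 and 12.1 to 14.1 FPKM, in the same groups. With the authors' scaling neither gene was called in either table. After rescaling Tet3 was called lower in both (log2 changes -0.41 in CD93- and -0.66 in CD93+ cells) and Tet2 in neither. The labels do not give which part of a gene was deleted, so these values per gene check neither genotype label. B cell markers (8 of 8 genes in both tables) summed to 3106 to 3275 FPKM in Tet DKO and 2846 to 3519.95 FPKM in CTL CD93- libraries, and to 1514 to 3147 FPKM in Tet KO and 3220.5 to 4228 FPKM in CTL CD93+ libraries. None of the 8 was at 0 in a whole group. Log2 changes are Tet-deficient minus CTL on the log2(FPKM + 1) scale, with adjusted p-values from limma with Benjamini-Hochberg adjustment over all tested genes.

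The first comparison asked what the deficiency did to the class II genes of CD93- B cells. Class II expression was high in both genotypes, and of the 10 genes only H2-DMa passed the threshold of 0.05 with the authors' scaling. H2-DMa was higher in Tet DKO cells, and none was lower, where 18.7% of all tested genes were called higher and 2.79% lower. After rescaling H2-DMa was still higher, and H2-DMb1, H2-DMb2 and H2-Ob were lower, where 17.1% of all tested genes were called higher and 23.8% lower. The median log2 change of the 10 genes was 0.17 with the authors' scaling and -0.05 after rescaling.

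Ciita was at 91.3, 89.3 and 88.1 FPKM in the 3 Tet DKO libraries, against 68.9, 89.4 and 87.4 FPKM in the 3 CTL libraries. The Tet DKO libraries lay close together, and CTL replicate 1 was below the rest (log2 change 0.14, SE 0.14, adjusted p = 0.536). H2-Aa was at 1507, 1594 and 1739.9 FPKM in Tet DKO and 1374, 1679.7 and 1562 FPKM in CTL libraries (log2 change 0.07). With quantile scaling it was called lower (log2 change -0.45, adjusted p = 0.00895, over its 22 alternatives 0.00895 to 0.977, called in 1). H2-Ab1 was at 1626, 1826 and 1825 FPKM in Tet DKO and 1333, 1655 and 1518 FPKM in CTL libraries (log2 change 0.23, adjusted p = 0.324). The groups overlapped for both chains of I-A. H2-Eb1 was at 1030.4, 1076 and 1135 FPKM in Tet DKO, above the 792, 1015 and 902 FPKM of the CTL libraries, without passing (log2 change 0.27, adjusted p = 0.237). Cd74 was at 5198, 5308 and 5829.7 FPKM in Tet DKO and 4061, 5339 and 4836 FPKM in CTL libraries (log2 change 0.21, adjusted p = 0.439). CTL replicate 1 was the lowest of the 6 libraries for all 10 genes. Its upper quartile was 18.7 FPKM, against 23.0 to 26.1 FPKM in the other 5.

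Among the genes that edit the peptide cargo, H2-DMa was above all CTL libraries in every Tet DKO library. H2-DMa and H2-Eb1 were the 2 of 10 genes with no overlap in this direction, where 31.5% of all tested genes had none. None of the 10 lay wholly below its controls, where 7.43% of all tested genes did. It was at 268, 274 and 277 FPKM in Tet DKO and 179.5, 219 and 209.9 FPKM in CTL libraries (means 273 ± 4.54 and 203 ± 20.7 FPKM, SD, n = 3 each). The log2 change was 0.43 (SE 0.13, adjusted p = 0.0350) and 0.21 after rescaling (SE 0.04, adjusted p = 0.00881, over its 22 alternatives 0.00881 to 0.165, called in 15). With the authors' scaling the call was lost without any 1 of the 3 Tet DKO libraries, without CTL replicate 3, without a filter and with sample weights, and it was lost with quantile scaling too. H2-DMb1, its partner, was at 201, 211 and 212 FPKM in Tet DKO and 183, 239.9 and 239.3 FPKM in CTL libraries. H2-DMb2 was at 449, 468 and 462 FPKM in Tet DKO and 399, 536 and 505 FPKM in CTL libraries. The Tet DKO values of both lay under CTL replicates 2 and 3 and above CTL replicate 1.

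After rescaling every Tet DKO library was below every CTL library for Ciita, H2-Aa, H2-DMb1, H2-DMb2 and H2-Ob, 5 of the 10 genes, where 33.3% of all tested genes were so. H2-DMa was the 1 gene with every Tet DKO library above, where 21.4% of all tested genes were so. H2-DMb1 was at 190.2, 198 and 193 FPKM in Tet DKO and 233, 235 and 247 FPKM in CTL libraries. The log2 change was -0.30 (SE 0.04, adjusted p = 0.00235). H2-DMb2 was then at 425, 438 and 420.2 FPKM in Tet DKO and 507, 525 and 522 FPKM in CTL libraries (log2 change -0.28, SE 0.05, adjusted p = 0.00359). Of the H2-DO chains, H2-Ob was at 274, 279 and 289 FPKM in Tet DKO and 251, 315 and 302 FPKM in CTL libraries. After rescaling H2-Ob was at 259.6, 261 and 263 FPKM in Tet DKO and 319, 308 and 312 FPKM in CTL libraries (log2 change -0.26, SE 0.04, adjusted p = 0.00270). These 3 calls were made in 9 of 22 alternatives each, those with upper quartile or quantile scaling, and their adjusted p ran from 0.00218 to 0.979 for H2-DMb1, 0.00359 to 0.983 for H2-DMb2 and 0.000902 to 0.994 for H2-Ob. H2-Oa, the other H2-DO chain, was at 126, 138 and 136 FPKM in Tet DKO and 96.2, 130.5 and 102 FPKM in CTL libraries, with groups that overlapped (log2 change 0.29, adjusted p = 0.175, and 0.07 after rescaling). Without CTL replicate 2 it passed with the authors' scaling (log2 change 0.42, adjusted p = 0.0295, over its 22 alternatives 0.0295 to 0.970, called in 1).

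**Figure D1:**
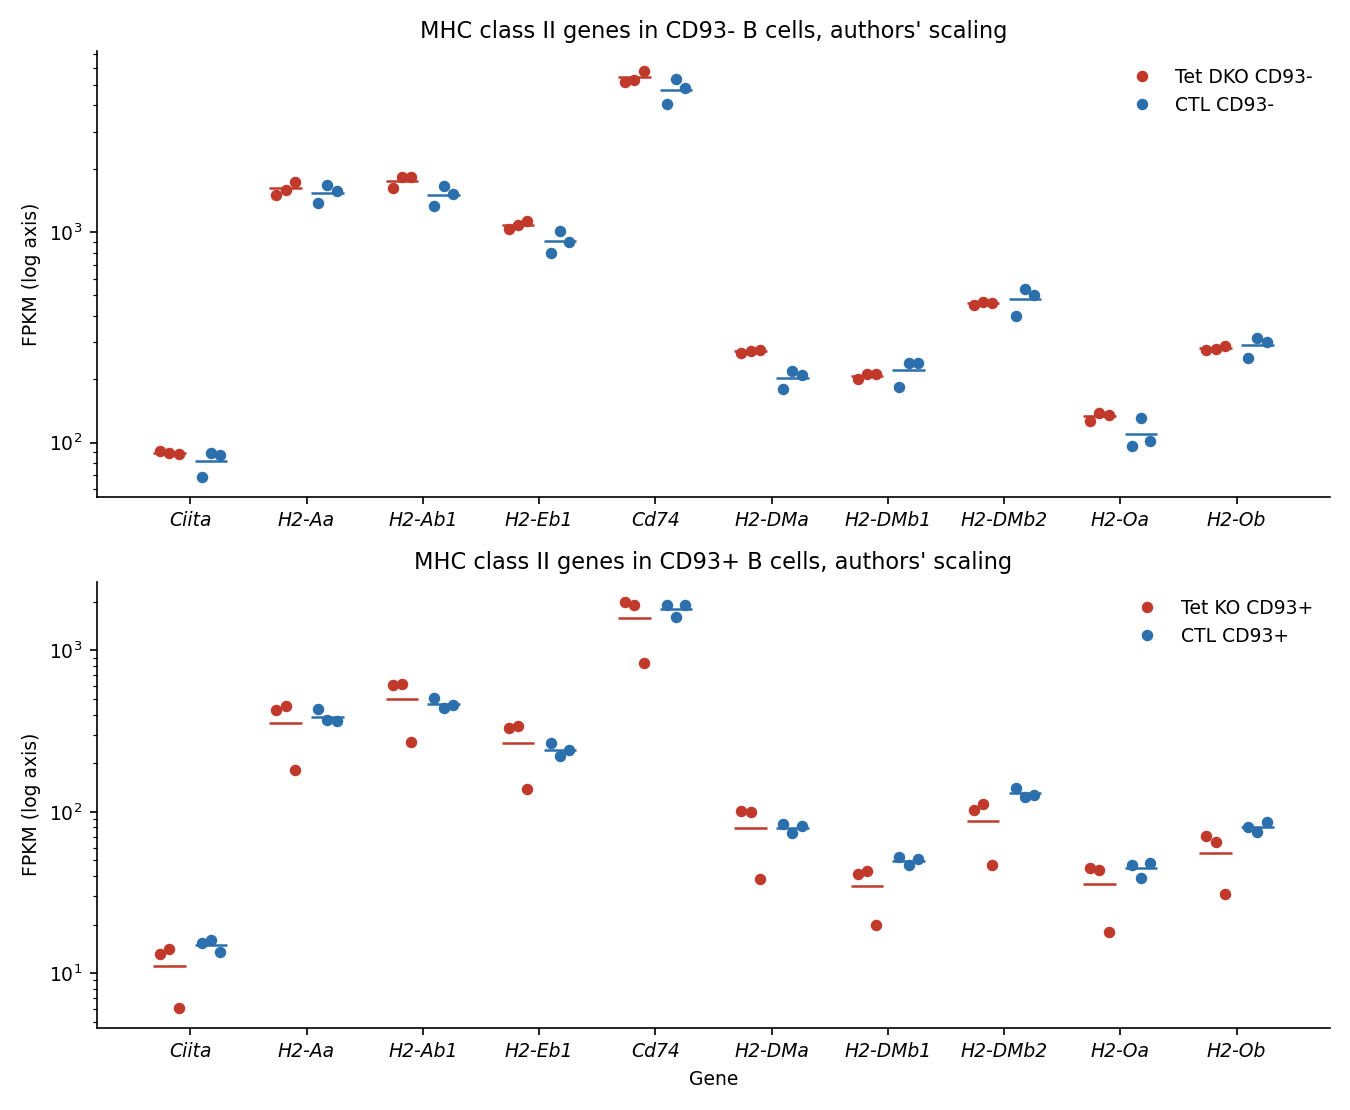
FPKM with the authors' scaling, on a log axis, of the 10 class II genes in each library of CD93- cells (upper panel) and CD93+ cells (lower panel). Points are libraries, with Tet-deficient libraries in red left of CTL libraries in blue, and bars are means of 3. CTL replicate 1 is the lowest point of every gene in the upper panel and Tet KO replicate 3 the lowest of every gene in the lower panel.

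The same comparison in CD93+ cells gave no call with the authors' scaling, in either direction, where 1.67% of all tested genes were called higher and 1.54% lower. At an unadjusted p under 0.05 none of the 10 was reached either. Tet KO replicate 3 was the lowest of the 6 libraries for all 10 genes. Without regard to it, Tet KO replicates 1 and 2 lay above all CTL libraries for H2-Ab1, H2-Eb1 and H2-DMa, and below all CTL libraries for H2-DMb1, H2-DMb2 and H2-Ob. The share of all tested genes for which these 2 libraries lay so was not counted, so these members cannot be set against it. After rescaling H2-DMb1, H2-DMb2 and H2-Ob were called lower, where 9.34% of all tested genes were called lower and 11.4% higher. They are the 3 genes called lower in CD93- cells after rescaling. How many of all tested genes were called lower in both populations was not counted, and H2-DMb1 and H2-DMb2 may share reads. The median log2 change of the 10 genes was -0.36 with the authors' scaling and -0.12 after rescaling. Without Tet KO replicate 3 it was 0.05 and -0.01.

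Ciita was at 13.1, 14.2 and 6.11 FPKM in the 3 Tet KO libraries, against 15.4, 15.9 and 13.5 FPKM in the 3 CTL libraries (log2 change -0.47, SE 0.36, adjusted p = 0.642). Without Tet KO replicate 3 the log2 change was -0.12. The groups overlapped, also after rescaling (log2 change -0.25, adjusted p = 0.230), and with sex as a covariate the rescaled change was -0.018. H2-Aa was at 429, 453 and 181 FPKM in Tet KO and 432, 369 and 367 FPKM in CTL libraries. H2-Ab1 was at 608, 617 and 270.1 FPKM in Tet KO and 506, 443 and 459 FPKM in CTL libraries. After rescaling H2-Ab1 was at 538, 567 and 462 FPKM in Tet KO and 470.3, 452 and 402 FPKM in CTL libraries, with groups that overlapped through Tet KO replicate 3 (log2 change 0.24, SE 0.10, adjusted p = 0.143). H2-Eb1 was at 329, 339 and 138 FPKM in Tet KO and 266, 222 and 240.3 FPKM in CTL libraries. Its rescaled log2 change was 0.28 (adjusted p = 0.135), and without Tet KO replicate 3 it was 0.40 and passed (adjusted p = 0.0403, over its 24 alternatives 0.0403 to 0.9995, called in 1). Cd74 was at 1999, 1904 and 840.4 FPKM in Tet KO and 1921, 1624 and 1913 FPKM in CTL libraries, with a rescaled log2 change of -0.05 (adjusted p = 0.754). With quantile scaling it was called lower (log2 change -0.32, SE 0.07, adjusted p = 0.0236, over its 24 alternatives 0.0236 to 0.9995, called in 1).

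H2-DMa was at 101, 99.6 and 38.5 FPKM in Tet KO and 84.6, 73.4 and 81.1 FPKM in CTL libraries. Its change did not pass with either scaling (log2 change -0.12 and, after rescaling, 0.12). H2-DMb1 was at 41.4, 42.9 and 19.9 FPKM in Tet KO and 52.3, 46.4 and 50.8 FPKM in CTL libraries. H2-DMb2 was at 103, 112 and 46.8 FPKM in Tet KO and 140.2, 123 and 127 FPKM in CTL libraries, and H2-Ob at 71.2, 64.6 and 30.9 FPKM in Tet KO and 80.6, 75.3 and 86.8 FPKM in CTL libraries. For these 3 genes every Tet KO library was below every CTL library with either scaling, where 19.0% of all tested genes were so with the authors' scaling and 22.0% after rescaling. None of the 10 lay wholly above its controls, where 2.94% of all tested genes did with the authors' scaling and 20.9% after rescaling. H2-Oa was at 44.6, 43.6 and 18.1 FPKM in Tet KO and 47.1, 38.8 and 48.2 FPKM in CTL libraries and overlapped (rescaled log2 change -0.19, adjusted p = 0.267).

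Rescaled, H2-DMb1 was at 36.6, 39.5 and 34.0 FPKM in Tet KO and 48.6, 47.4 and 44.5 FPKM in CTL libraries (log2 change -0.35, SE 0.08, adjusted p = 0.0249). H2-DMb2 was at 91.0, 103 and 80.1 FPKM in Tet KO and 130.4, 126 and 111 FPKM in CTL libraries (log2 change -0.43, SE 0.11, adjusted p = 0.0358). H2-Ob was at 63.0, 59.4 and 52.9 FPKM in Tet KO and 75.0, 76.8 and 76.0 FPKM in CTL libraries (log2 change -0.38, SE 0.08, adjusted p = 0.0197). Over 24 alternatives their adjusted p ran from 0.0178, 0.0236 and 0.0140 to 0.9995 each, and they were called in 4, 5 and 5. The library's sex, read from Xist and Ddx3y, moved with genotype here: Xist was at 19.7 to 50.7 FPKM in all 3 Tet KO libraries and 59.4 FPKM in CTL replicate 3, and at 0.594 and 0.429 FPKM in CTL replicates 1 and 2. With sex as a covariate none of the 3 rescaled calls was kept, with log2 changes of -0.28 for H2-DMb1 (SE 0.11), -0.29 for H2-DMb2 (SE 0.14) and -0.38 for H2-Ob (SE 0.11). None was made without CTL replicate 1 or without CTL replicate 2 either, with log2 changes of -0.32 and -0.33 for H2-DMb1, -0.38 and -0.40 for H2-DMb2 and -0.39 and -0.36 for H2-Ob, close to those with all libraries. After rescaling 1 of the 10 genes was called lower without Tet KO replicate 1, 2 without Tet KO replicate 2, 1 without Tet KO replicate 3 and 3 without CTL replicate 3.

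**Figure D2:**
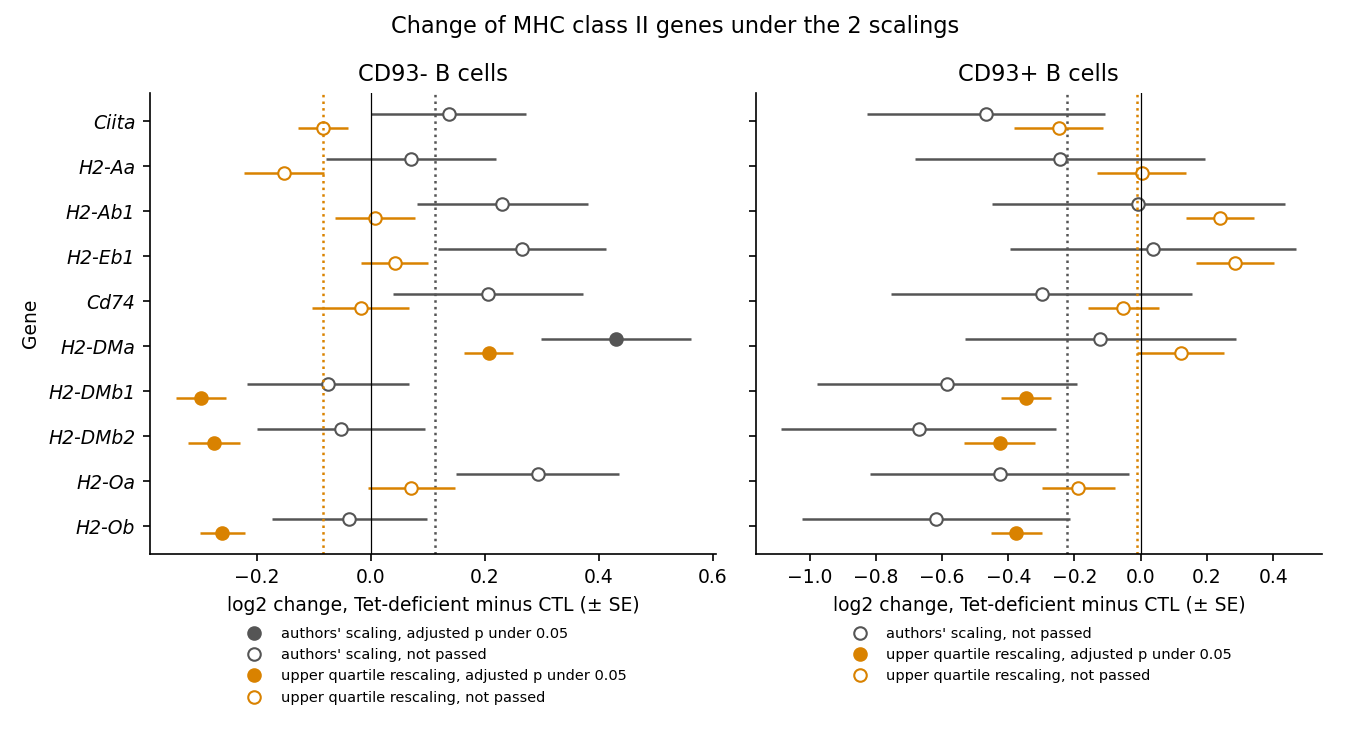
Log2 change of each class II gene, Tet-deficient minus CTL, with its standard error, in CD93- cells (left) and CD93+ cells (right). Grey marks the authors' scaling and orange the upper quartile rescaling, filled points have an adjusted p under 0.05, and dotted lines are the median change of all tested genes. H2-DMb1, H2-DMb2 and H2-Ob are the filled points to the left of 0 in both panels.

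Ratios between genes of the same library do not depend on the scaling, and they were read to see which partners moved apart. The proportion of H2-DMa to its β chains was higher in the deficient cells of both populations. H2-DMa over the sum of H2-DMb1 and H2-DMb2 was 0.412, 0.403 and 0.411 in Tet DKO and 0.308, 0.282 and 0.282 in CTL CD93- libraries. In CD93+ libraries it was 0.701, 0.645 and 0.577 in Tet KO and 0.439, 0.432 and 0.455 in CTL. The groups did not overlap in either table (log2 changes 0.49 and 0.53), and Tet KO replicate 3 kept to its group. This ratio was picked after its values were seen and has no test. How many ratios of other gene pairs separated the groups was not counted. Of single genes after rescaling, 21.4% lay wholly above and 33.3% wholly below their controls in CD93- cells. In CD93+ cells these shares were 20.9% and 22.0%. Neither H2-DMb2 over H2-DMb1 (log2 changes 0.02 and -0.08) nor the summed β chains over H2-Ob (-0.02 and -0.03) separated the groups.

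Of the ratios, 8 had a test, an exact two-sided permutation test that cannot go below p = 0.1 with 3 libraries against 3. A test over both tables together, which can reach 0.005, was added after the values had been seen. By it 3 of the 8 passed after adjustment over the 8. Of these, H2-Aa over H2-Ab1 and Ciita over H2-Ab1 share a denominator and are not independent. Sex moved with genotype in the CD93+ table, and no ratio was tested with sex as a covariate. H2-DMa over H2-Oa was 2.12, 1.98 and 2.04 in Tet DKO and 1.87, 1.68 and 2.06 in CTL CD93- libraries, which overlap. It was 2.26, 2.28 and 2.13 in Tet KO and 1.797, 1.89 and 1.68 in CTL CD93+ libraries, which do not (log2 changes 0.14 and 0.32, exact permutation adjusted p = 0.04 over both tables). H2-Aa over H2-Ab1 was 0.927, 0.873 and 0.954 in Tet DKO and 1.03, 1.01 and 1.03 in CTL CD93- libraries, and 0.706, 0.735 and 0.670 in Tet KO and 0.855, 0.832 and 0.801 in CTL CD93+ libraries. The I-A α chain was thus lower against its β chain in 6 of 6 deficient libraries (log2 changes -0.16 and -0.24, exact permutation adjusted p = 0.04). How often other gene pairs separated in this way was not counted. Ciita over H2-Ab1 was 0.0561, 0.0489 and 0.0483 in Tet DKO and 0.0517, 0.0540 and 0.0576 in CTL CD93- libraries, which overlap. It was 0.0215, 0.0230 and 0.0226 in Tet KO and 0.0304, 0.0360 and 0.0294 in CTL CD93+ libraries, which do not (log2 changes -0.09 and -0.51, exact permutation adjusted p = 0.04).

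The other 5 did not pass. Cd74 over H2-Ab1 had log2 changes of -0.03 and -0.29 (exact permutation adjusted p = 0.07), and H2-Oa over H2-Ab1 of 0.06 and -0.43 (exact permutation adjusted p = 0.136). H2-Eb1 over H2-Ab1 had log2 changes of 0.03 and 0.04 (exact permutation adjusted p = 0.187). For H2-DMa over H2-Ab1 the log2 changes were 0.20 in CD93- and -0.12 in CD93+ cells. The difference between the 2 tables did not pass for any of the 8 ratios, and it had the smallest adjusted p, 0.08 by the exact permutation test, for that ratio.

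**Figure D3:**
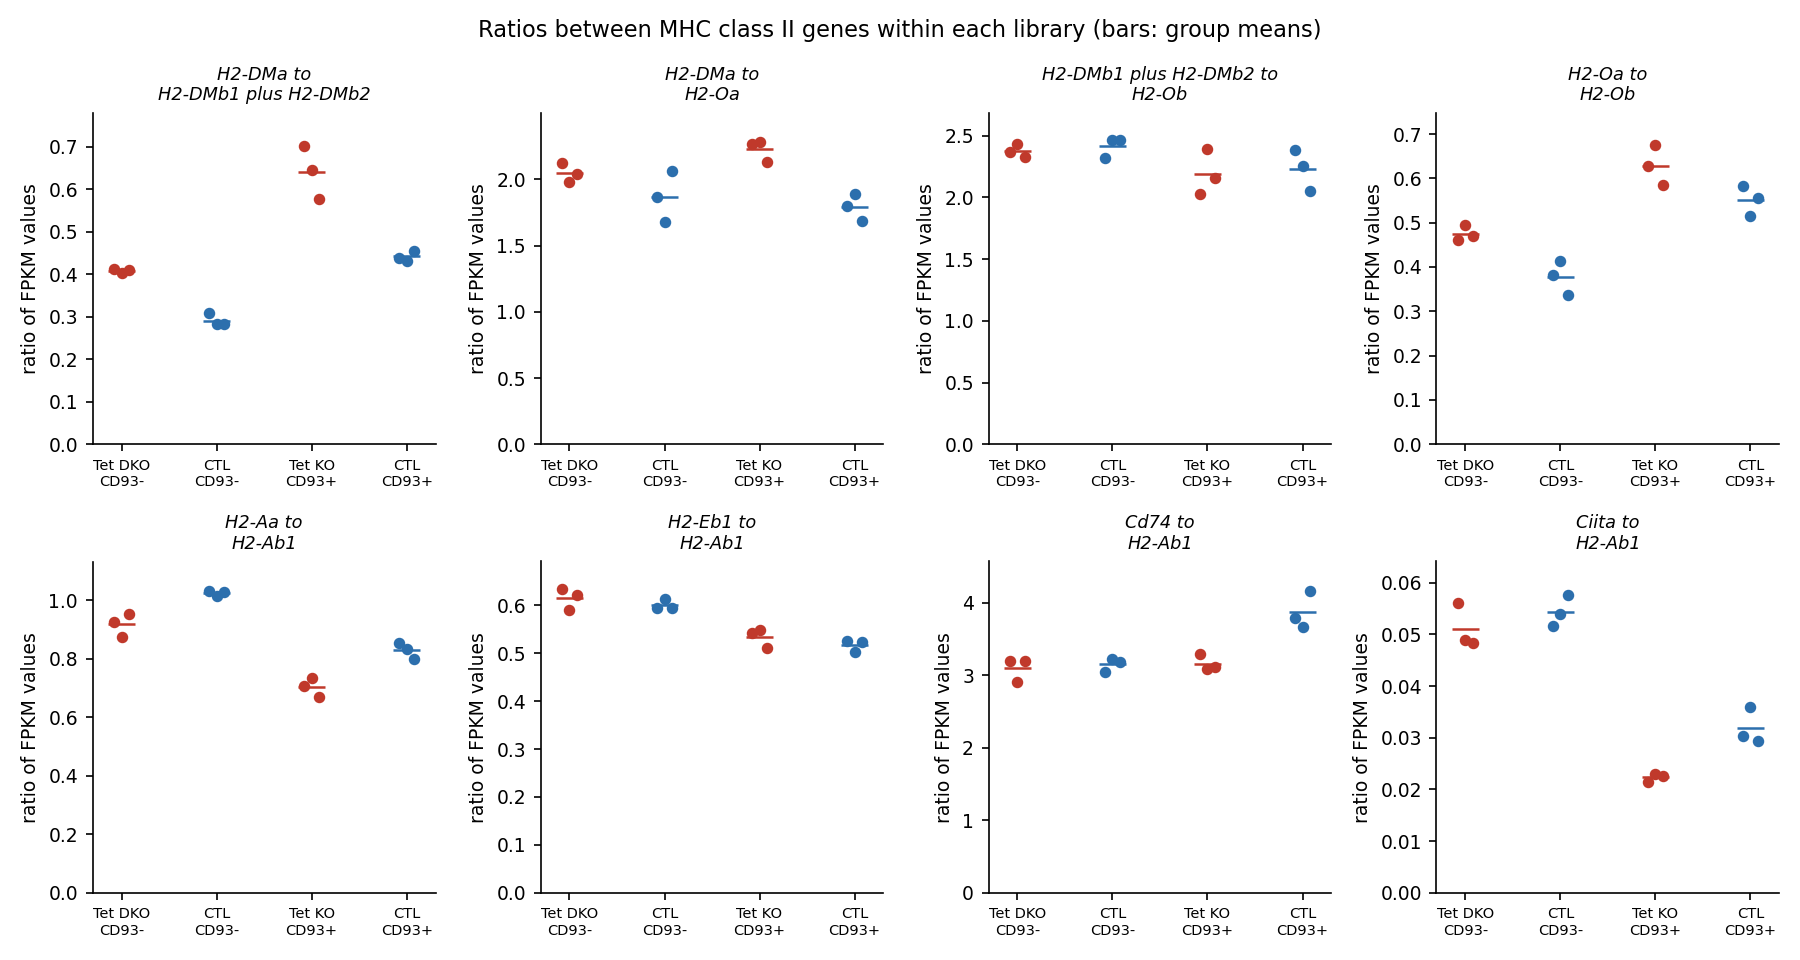
Ratio of FPKM values between class II genes within each library, for 8 pairs, with Tet DKO and CTL CD93- libraries and then Tet KO and CTL CD93+ libraries from left to right. Points are libraries, red for Tet-deficient and blue for CTL, and bars are means of 3. H2-DMa over its β chains is 0.403 to 0.412 in Tet DKO and 0.282 to 0.308 in CTL CD93- libraries, while the β chains over H2-Ob overlap in both populations.

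Of 9 genes listed for the control of Ciita, 5 were higher and none lower in Tet DKO CD93- cells with the authors' scaling, with a median log2 change of 0.45. Among all tested genes 18.7% were called higher and 2.79% lower. Zbtb32 and Prdm1, which in plasma cells act together to silence Ciita, were both among the 5. Zbtb32 was at 10.8, 13.5 and 13.4 FPKM in Tet DKO and 1.76, 1.99 and 2.20 FPKM in CTL libraries (log2 change 2.18, adjusted p = 7.48e-07). Prdm1 was at 3.37, 3.08 and 3.11 FPKM in Tet DKO and 0.481, 0.542 and 0.874 FPKM in CTL libraries (log2 change 1.37, adjusted p = 6.33e-05). Irf1, through which interferon-γ switches Ciita on, averaged 174 ± 13.2 FPKM in Tet DKO and 54.2 ± 7.19 FPKM in CTL cells (SD, n = 3 each, log2 change 1.68, adjusted p = 5.40e-06). Irf8, which acts at a promoter of Ciita in B cells, averaged 311 ± 9.88 FPKM in Tet DKO and 184 ± 32.5 FPKM in CTL cells (SD, n = 3 each, log2 change 0.77, adjusted p = 0.00327). Zbtb32, Prdm1, Irf1 and Irf8 were higher, and Ciita itself was not called. Nor were Irf4, Sfpi1 and Tcf3 of the same list (log2 changes 0.07, 0.10 and 0.05). Whether any of these genes bore on Ciita was not tested. After rescaling 5 of the 9 were higher and 1 lower, where 17.1% of all tested genes were called higher and 23.8% lower. The gene called lower was Tcf3 (log2 change -0.17, adjusted p = 0.0159).

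In Tet KO CD93+ cells 2 of these 9 genes were higher with the authors' scaling and none lower. Among all tested genes 1.67% were called higher and 1.54% lower. Zbtb32 was at 7.31, 8.81 and 3.40 FPKM in Tet KO and 0.986, 1.49 and 1.29 FPKM in CTL libraries (log2 change 1.66, adjusted p = 1.20e-06). Prdm1 was at 5.65, 3.98 and 2.54 FPKM in Tet KO and 0.779, 0.741 and 0.796 FPKM in CTL libraries (log2 change 1.47, adjusted p = 3.95e-06). Every Tet KO library was above every CTL library for both genes, replicate 3 included. After rescaling Irf1 was also higher (log2 change 1.06, adjusted p = 0.00157). Tcf3, which encodes E2A, Sfpi1, which encodes PU.1, and Irf4 were lower (log2 changes -0.38, -0.34 and -0.27). Among all tested genes 11.4% were called higher and 9.34% lower after rescaling.

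Of 6 plasma cell markers, 4 were called higher and none lower in each population with the authors' scaling, Prdm1 among them. Of all tested genes 18.7% were called higher in CD93- and 1.67% in CD93+ cells. Sdc1 and Irf4 were not called (log2 changes 0.23 and 0.07 in CD93-, -0.15 and -0.51 in CD93+ cells). After rescaling Irf4 was called lower in CD93+ cells. The sum of all 6 markers (6 of 6 genes in both tables, none at 0 in a whole group) was 603 to 680.1 FPKM in Tet DKO and 172 to 221 FPKM in CTL CD93- libraries, and 1343 to 2426 FPKM in Tet KO and 335 to 508 FPKM in CTL CD93+ libraries. Their part in the class II values was not tested. In sorted cells analysed in bulk, fewer cells that express a gene and less RNA of it per cell cannot be told apart. Dendritic cell markers, of cells that also make class II, were low in sum, at 38.9 to 40.4 FPKM in Tet DKO and 31.5 to 47.9 FPKM in CTL CD93- libraries, and 9.60 to 12.5 FPKM in Tet KO and 9.24 to 11.0 FPKM in CTL CD93+ libraries (8 of 8 genes, none at 0 in a whole group). They did not all move alike. Of the 7 tested in CD93- cells, Itgax and Zbtb46 were called higher and Cd209a lower with the authors' scaling. After rescaling 2 were higher and 3 lower there. Macrophage and monocyte markers (8 of 8 genes, none at 0) summed to 14.1 to 15.6 FPKM in Tet DKO and 9.22 to 14.6 FPKM in CTL CD93- libraries, and to 102 to 265 FPKM in Tet KO and 153 to 257 FPKM in CTL CD93+ libraries. In the CD93+ table markers of cells without class II were also high. Red cell markers (5 of 5 genes) summed to 2168 to 9039 FPKM in Tet KO and 8509.6 to 40143 FPKM in CTL libraries, and neutrophil markers (4 of 5 genes in the table) to 315 to 1042 FPKM in Tet KO and 1111 to 1562 FPKM in CTL libraries, none of them at 0. In the CD93- table red cell markers summed to 68.1 to 152 FPKM in Tet DKO and 1.19 to 44.2 FPKM in CTL libraries, and T cell markers (6 of 6 genes, none at 0) to 23.0 to 24.4 FPKM in Tet DKO and 9.48 to 15.4 FPKM in CTL libraries. Their part in the class II values was not tested.

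Ciita docks on RFX, NF-Y and CREB proteins at the promoter. None of the 7 genes of that complex was called in either table with the authors' scaling, with median log2 changes of 0.04 in CD93- and -0.29 in CD93+ cells. Among all tested genes 18.7% were called higher and 2.79% lower in CD93-, and 1.67% and 1.54% in CD93+ cells. After rescaling 3 of the 7 were lower in Tet DKO CD93- cells, namely Creb1, Nfya and Rfx5 (log2 changes -0.40, -0.31 and -0.24), and Creb1 was lower in Tet KO CD93+ cells (-0.28, adjusted p = 0.0443). The rescaled shares of all tested genes were 17.1% higher and 23.8% lower in CD93-, and 11.4% and 9.34% in CD93+ cells. Of 5 coactivators none was called with the authors' scaling. After rescaling 1 was higher and 2 were lower in CD93- cells, and none was higher and 1 lower in CD93+ cells. Crebbp, which encodes the acetyltransferase CBP, was lower in both, at 15.5 ± 0.989 FPKM in Tet DKO and 21.8 ± 2.06 FPKM in CTL CD93- cells and at 8.72 ± 1.38 FPKM in Tet KO and 14.5 ± 1.86 FPKM in CTL CD93+ cells (SD, n = 3 each, log2 changes -0.47 and -0.68, adjusted p = 0.00436 and 0.0196). Ep300, its relative p300, was called lower in CD93- cells alone, and that difference between the tables was not tested.

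In the endosome, 3 of 10 genes for processing antigen and the invariant chain were higher in Tet DKO CD93- cells and none was lower with the authors' scaling (median log2 change 0.16). Among all tested genes 18.7% were called higher and 2.79% lower. Lgmn, an asparaginyl endopeptidase, was at 66.2, 71.7 and 74.4 FPKM in Tet DKO and 36.6, 48.4 and 42.8 FPKM in CTL libraries (log2 change 0.73, SE 0.14, adjusted p = 0.00243). Ifi30, the thiol reductase GILT that opens disulfide bonds of antigens, was at 282, 287 and 312 FPKM in Tet DKO and 164, 220.1 and 181 FPKM in CTL libraries (log2 change 0.65, SE 0.14, adjusted p = 0.00660). Ctsh, an aminopeptidase, averaged 190.3 ± 2.01 FPKM in Tet DKO and 129.5 ± 24.0 FPKM in CTL cells (SD, n = 3 each, log2 change 0.57). Ctss, the protease that removes the last large part of the invariant chain in B cells, averaged 248 ± 16.7 FPKM in Tet DKO and 234 ± 27.8 FPKM in CTL cells and was not called (log2 change 0.09, adjusted p = 0.710). After rescaling 4 were higher and 2 lower in CD93- cells, where 17.1% of all tested genes were called higher and 23.8% lower.

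No gene of that list was called in CD93+ cells with the authors' scaling. After rescaling Lgmn alone was, at 64.3, 69.5 and 63.4 FPKM in Tet KO and 41.1, 39.5 and 47.3 FPKM in CTL libraries (log2 change 0.62, SE 0.09, adjusted p = 0.00606). Among all tested genes 1.67% were called higher with the authors' scaling and 11.4% after rescaling, and 1.54% and 9.34% lower. Of the genes for class II traffic, 5 of 7 were in the tables under their names. Cd83, which shields surface class II from ubiquitination, was at 111, 109 and 109 FPKM in Tet DKO and 62.0, 78.5 and 71.5 FPKM in CTL CD93- libraries (log2 change 0.63, adjusted p = 0.00431). Ap2m1, a subunit of the endocytic adaptor AP-2, was the other called of the 5 (log2 change 0.43, adjusted p = 0.0449), and none was lower. The shares of all tested genes in CD93- cells were 18.7% higher and 2.79% lower. In CD93+ cells none of the 5 was called with the authors' scaling, and after rescaling Cd83 was higher (log2 change 0.60, adjusted p = 0.0404), at 29.7, 32.4 and 21.7 FPKM in Tet KO and 16.7, 16.7 and 20.2 FPKM in CTL libraries. Sex moved with genotype in the CD93+ table. Whether Lgmn and Cd83 would still be called there with sex as a covariate was not tested. H2-Ea-ps, the I-E α gene under its pseudogene name, was at 0 to 0.708 FPKM in the deficient and 0.158 to 1.49 FPKM in the CTL libraries of the 2 tables, and it did not pass the filter. H2-Eb2, a minor β chain, was called lower in CD93- cells after rescaling (log2 change -0.36, adjusted p = 0.00189).

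**Figure D4:**
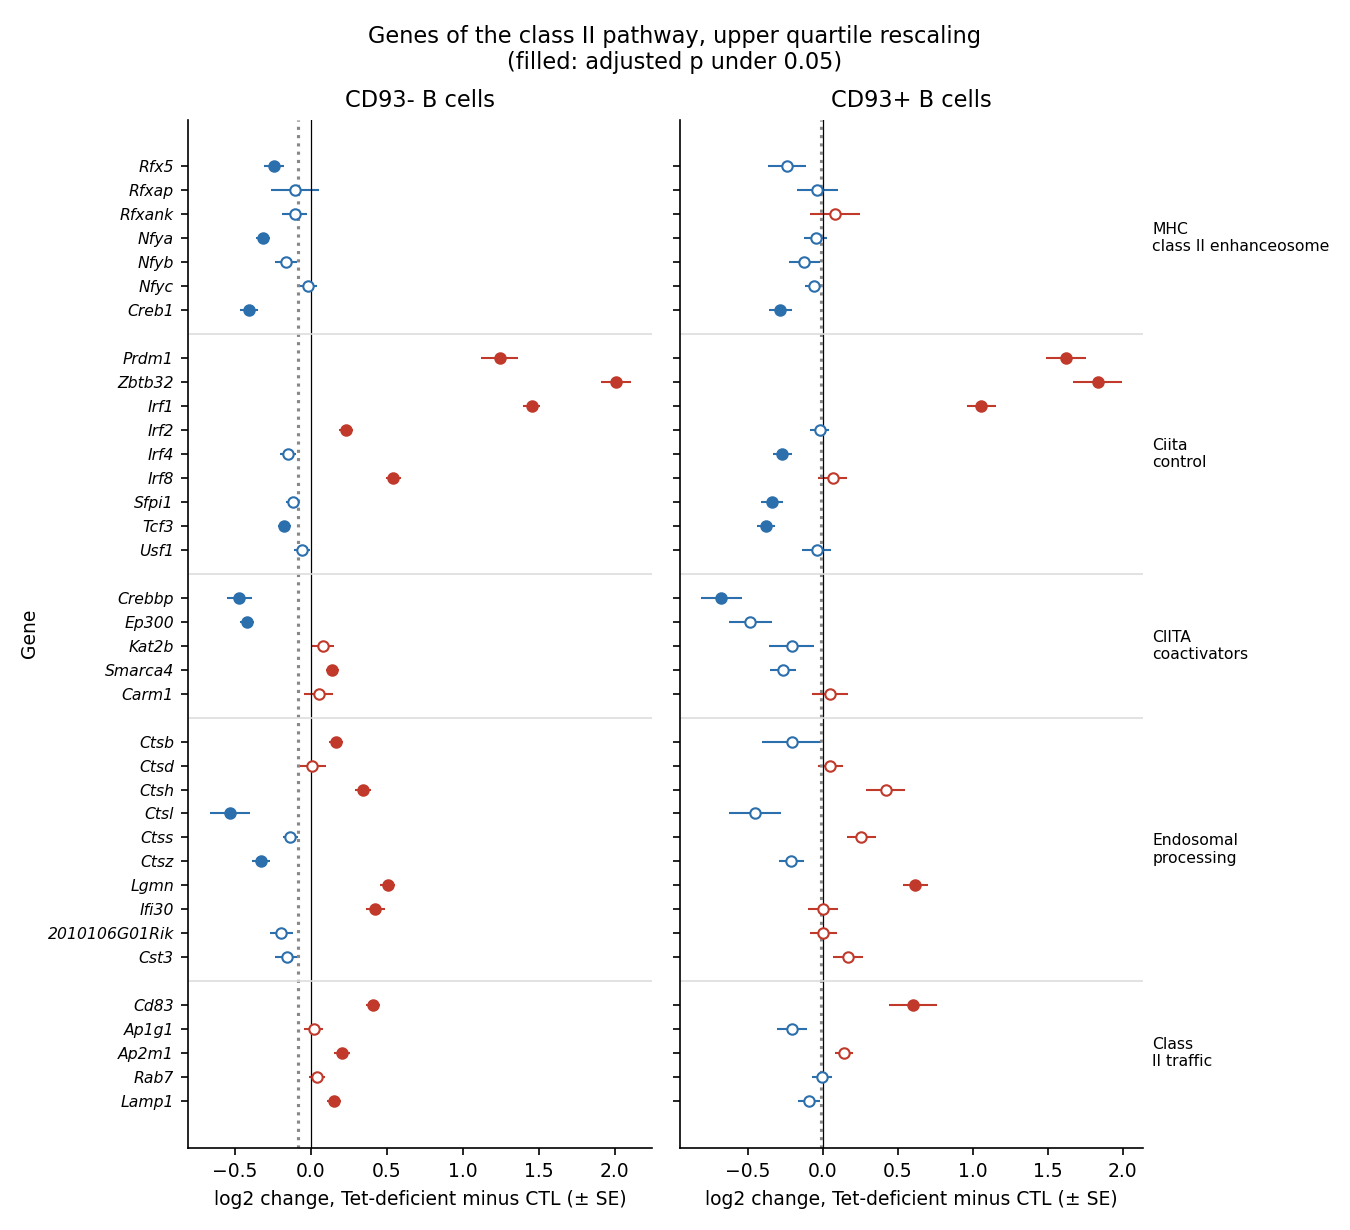
Log2 change after upper quartile rescaling, Tet-deficient minus CTL, with its standard error, of genes that regulate, process for or transport class II molecules, in CD93- cells (left) and CD93+ cells (right). Red marks values above 0 and blue values below 0, filled points have an adjusted p under 0.05, and the dotted line is the median of all tested genes. Zbtb32, Irf1 and Prdm1 lie at 1.06 or higher in both panels.

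Of the MHC class I and loading genes, used for comparison, 9 of 9 were called higher in Tet DKO CD93- cells with either scaling (median log2 change 0.95 and 0.73). Among all tested genes 18.7% were called higher with the authors' scaling and 17.1% after rescaling. In CD93+ cells 0 of 9 were called with the authors' scaling and 9 of 9 were higher after rescaling (median log2 change 0.80 and 1.05). The shares of all tested genes called higher there were 1.67% and 11.4%. The class I coactivator Nlrc5, a relative of Ciita, averaged 41.0 ± 0.984 FPKM in Tet DKO and 12.9 ± 2.94 FPKM in CTL CD93- cells (SD, n = 3 each, log2 change 1.62, adjusted p = 2.01e-05).

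The order of levels among the class II genes was nearly the same in the 4 groups. Cd74 was the highest by mean and Ciita the lowest in each. In Tet DKO CD93- cells H2-Ab1 averaged 1759 ± 115 and H2-Aa 1614 ± 118 FPKM, and in CTL CD93- cells H2-Ab1 averaged 1502 ± 162 and H2-Aa 1539 ± 154 FPKM (SD, n = 3 each), with ranges that overlap in both groups. H2-Eb1 and then H2-DMb2 came next in every group. H2-DMa had rank 7 in Tet DKO and rank 8 in CTL CD93- cells, and rank 6 in Tet KO and rank 7 in CTL CD93+ cells, each time overlapping a neighbour in the order. Levels were lower in the CD93+ table, Ciita at 11.1 ± 4.37 FPKM in Tet KO and 14.9 ± 1.29 FPKM in CTL CD93+ cells, against 89.6 ± 1.59 FPKM in Tet DKO and 81.9 ± 11.3 FPKM in CTL CD93- cells. The tables were scaled separately, so this difference has no test.

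The genes differed in how closely they followed the I-A and I-E chains from library to library. After removing each library's median and each gene's mean in a table, H2-DMa had a Pearson r of 0.83 with the mean of H2-Aa, H2-Ab1 and H2-Eb1 over the 12 libraries, and Cd74 had 0.74. H2-Oa had 0.49 and Ciita 0.24, while H2-DMb2 had 0.10, H2-DMb1 0.00 and H2-Ob -0.05. Of 6749 other genes the most alike were Slc35a4 (0.93), Polr2e (0.90), Alkbh5 (0.85), Ehd1 (0.84) and Mrps18c (0.84). These values describe 12 libraries that share scaling and genotype groups and carry no test.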

How the data were processed

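RNA was purified with the RNeasy micro kit and made into libraries with a strand-specific SureSelect kit, per the labels' protocols. Per the submitters' processing notes the genome build was mm9 and the tools were Cufflinks 2.1.1, TopHat2 2.0.8 and Bowtie2 2.1.0. The authors deposited FPKM values per gene and library, in a table of 6 CD93- and a table of 6 CD93+ libraries. The annotation, any filter and the treatment of reads that match several genes are not given in the sources used here. Another 6 value columns of CD93+ repeated those used and were left out, and 25 gene names in each had become dates, so March1 and March8 have no values here. FPKM holds no counts, so depth is unknown and no count model was run.

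The filter kept genes that reached 1 FPKM in 3 or more libraries, 10960 in CD93- and 11250 in CD93+. On log2(FPKM + 1) limma 3.58.1 (R 4.3.3) was run with a trend of variance on level. This scale understates changes of low genes. Tests were two-sided, within each table, since the tables were scaled separately, with p-values adjusted over all tested genes. In the CD93+ table with the authors' scaling the fit gave all genes of like level the same spread. The fit was tested on simulated data. Ratios, level tables and promoter searches were made in Python 3.11.15 (numpy 2.4.6, pandas 2.3.3, biopython 1.88), with synonyms and promoter windows from RefSeq (GRCm38.p6). Replicate numbers did not pair libraries: the deviations of same-numbered libraries correlated at -0.11 to 0.02 in CD93- and -0.14 to 0.17 in CD93+ cells. The 10 genes and all lists were chosen with earlier results of these data known. The text names these 10, up to 4 called genes per list and direction, and the 5 genes most like the mean of H2-Aa, H2-Ab1 and H2-Eb1. A gene of the list for the control of Ciita is not reported here. Ctss and H2-Ea-ps are given for their roles, and Sdc1 and Irf4 as plasma cell markers, whatever their values. Tcf3, Sfpi1 and Irf4 are given in CD93- cells because they are named in CD93+ cells. The alternatives tried were a filter of 5 FPKM or none, pseudocounts of 0.1 and 5, upper quartile and quantile scaling, no trend, sample weights, a replicate block, sex, and each library left out. For genes outside the 10 only the authors' scaling and upper quartile rescaling were read. Their calls were thus not checked with sex or with a library left out.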

Additional observations from a re-analysis of the deposited data

How the results depend on the processing

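Depth is unknown, 3 libraries a group limit precision, and 2 scalings give different accounts of the same tables. H2-DMa in CD93- cells kept its direction under all 22 alternatives. H2-DMb1 was below 0 under all 22 in CD93- and all 24 in CD93+ cells, and H2-DMb2 and H2-Ob under all 24 in CD93+ cells. The 1 higher call in CD93- cells became 0 with no filter, quantile scaling or sample weights, and 0 to 2 with a library left out. The 0 lower calls became 3 with upper quartile rescaling, 3 with the replicate block added to it, 4 with quantile scaling and 0 to 3 with a library left out under either scaling. In CD93+ cells the 0 lower calls became 3, 1, 4 and 0 to 3 in the same order, and the 0 higher calls became 0 to 1 with a library left out. The replicate block with the authors' scaling gave 1 higher and 0 lower call in CD93- and none in CD93+ cells. On rescaled values it left 1 of the 3 lower calls of CD93+ cells. H2-DMb1 and H2-Ob missed the threshold at unchanged log2 changes of -0.35 and -0.38 (adjusted p = 0.0594 and 0.0616), and the numbers do not pair the libraries. Sex could not be fitted in CD93- cells, where all 6 libraries read as male. Some log2 changes not called with the authors' scaling turned sign, of which H2-Aa in CD93- cells was called lower with quantile scaling, and the cause was not tested beyond the shift of scale itself. With upper quartile rescaling, with or without the block, CD93- values were -0.018 for Cd74, -0.084 for Ciita and -0.15 for H2-Aa, and CD93+ values 0.0029 for H2-Aa, 0.24 for H2-Ab1 and 0.12 for H2-DMa. With quantile scaling they were -0.11 for Ciita, -0.45 for H2-Aa, -0.25 for H2-Ab1 and -0.20 for H2-Eb1 in CD93-, and 0.12 for H2-Ab1 and 0.049 for H2-DMa in CD93+ cells. With sample weights H2-Aa was at -0.019 in CD93-, and Cd74 at 0.0032, H2-Ab1 at 0.22 and H2-DMa at 0.19 in CD93+ cells. With sex as a covariate H2-Ab1 was at 0.023, and on rescaled values H2-Aa at 0.18, H2-Ab1 at 0.37 and H2-DMa at 0.19. With a library left out under either scaling, CD93+ values ran from -0.52 to 0.10 for Cd74, -0.48 to 0.18 for H2-Aa, -0.21 to 0.39 for H2-Ab1, -0.35 to 0.33 for H2-DMa and -0.18 to 0.46 for H2-Eb1. The highest of each was without Tet KO replicate 3. In CD93- cells they ran from -0.050 to 0.30 for Cd74, -0.11 to 0.20 for Ciita, -0.19 to 0.14 for H2-Aa, -0.023 to 0.30 for H2-Ab1, -0.29 to 0.033 for H2-DMb2, -0.0074 to 0.42 for H2-Oa and -0.27 to 0.027 for H2-Ob. The highest of each was without CTL replicate 2. Among ratios, log2 changes ran from -0.092 to 0.028 for the β chains of H2-DM over H2-Ob in CD93+ and from -0.050 to 0.020 for Cd74 over H2-Ab1 in CD93- cells.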
